A study of Mus musculus with 14 samples.

Results

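The ABC transporters are a family of ATP-driven membrane pumps with a few soluble relatives, and their RNA was followed here in mouse liver with and without Mettl3, the methyltransferase that places most m6A marks on mRNA. Members were all genes whose symbol reads Abc, a subfamily letter from a to g and a number, with a protein-coding entry and no pseudogene mark. These were 50 of the 54446 genes in the table. Livers came from C57BL/6 mice at 5 weeks of age. The 6 control mice carried a floxed Mettl3 gene. The 8 knockout mice carried the floxed gene and Alb-Cre, which makes the Cre recombinase from the albumin promoter and so cuts the gene in hepatocytes. That promoter is already active in hepatoblasts, the shared precursors of hepatocytes and bile duct cells, so bile duct cells can carry the cut too, whereas cells of other lineages keep the gene. Each mouse gave 1 library of total RNA from frozen liver. The value of a gene in a library is its normalised estimated read count.

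ABC proteins bind and split ATP to move a substrate across a membrane. In the hepatocyte, pumps of the canalicular membrane export bile salts, phospholipid, sterols and drug conjugates into bile. Pumps of the basolateral membrane, which faces the blood, return bile salts and conjugates to the circulation and are known to rise when bile flow is blocked. Peroxisomal members import fatty acyl-CoA and bile acid intermediates, mitochondrial members handle iron-sulfur and heme precursors, the ABCA proteins move lipids, and the ABCE and ABCF proteins have no membrane part and act on ribosomes.

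As a check of the labels, Mettl3 was 199 to 263 in the controls and 76.9 to 122 in the knockouts (log2 change -1.17, SE 0.12, limma adjusted p = 1.32e-05). Estimated reads per library were 11.1 to 33.8 M (M, megareads). Sex was not labelled, but libraries 1 to 4 of both groups were Y-positive and the other 6 were Xist-high, and the Xist-high libraries were also the shallower ones, at 11.1 to 19.3 M reads against 24.3 to 33.8 M. An earlier account of these files set knockouts 3, 6 and 7 apart from the other knockouts. Their values of Cdkn1a, a p53 target, were 481, 520.4 and 549.6, the other 5 knockouts lay at 49.9 to 162, and controls at 18.3 to 41.1. The share of a library's summed values from mitochondrial genes was 7.85% and 7.91% in knockouts 6 and 7, 3.53% in knockout 3 and 2.77% to 5.47% over all libraries but knockouts 6 and 7. Its part in the values of those libraries was not tested. Nothing in the labels says how mice were related or processed in batches, so p-values measure the spread between these mice. In whole liver, fewer cells of a type and less RNA per cell cannot be told apart.

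Of the 50 members, 46 had values high enough to be tested, and 4 of these were higher and 13 lower in knockouts, while 29 did not pass the test. The test was limma on log2(value + 1), fitted over 23554 genes, with an adjusted p of at most 0.05. Of all genes tested 22.4% were called, 11.5% higher and 11.0% lower, and of the protein-coding genes 13.3% and 13.6%. Among the members tested the shares were 8.70% and 28.3%. Calls were more common among well expressed genes. In a fit of the 11777 genes above the median mean value, 1968 were called higher and 2485 lower. That fit held 40 members, of which 4 were higher and 13 lower. The median log2 change was -0.08 over the members tested and 0.05 over all genes tested. The groups did not overlap at all for 9 members, Abcc4, Abcc12 and Abcb9 above the controls and Abcg8, Abca8a, Abca8b, Abca6, Abcd3 and Abcf3 below them, which is 19.6% of the members tested beside 8.16% of all genes tested. When all libraries were instead brought to the same total outside ribosomal RNA (equal sums), the median change of all genes moved up by 0.33 on the log2 scale. Then 33.3% of all genes were called higher and 3.68% lower, and the members split 10 to 5. Without knockouts 3, 6 and 7 there were 4 higher and 9 lower members, beside 9.19% and 9.24% of all genes. Levels below are therefore relative to the authors' own scaling, and members whose call or direction depends on it are named. The sign of 13 of the 46 tested members turned from negative to positive with equal sums, namely Abca2, Abca4, Abca7, Abca9, Abcb6, Abcb8, Abcc9, Abcd4, Abce1, Abcf1, Abcf2, Abcg1 and Abcg2. Without knockouts 3, 6 and 7 the sign turned for Abca4, Abca5, Abcc2, Abcd4, Abcg2 and Abcg3.

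**Figure D1:**
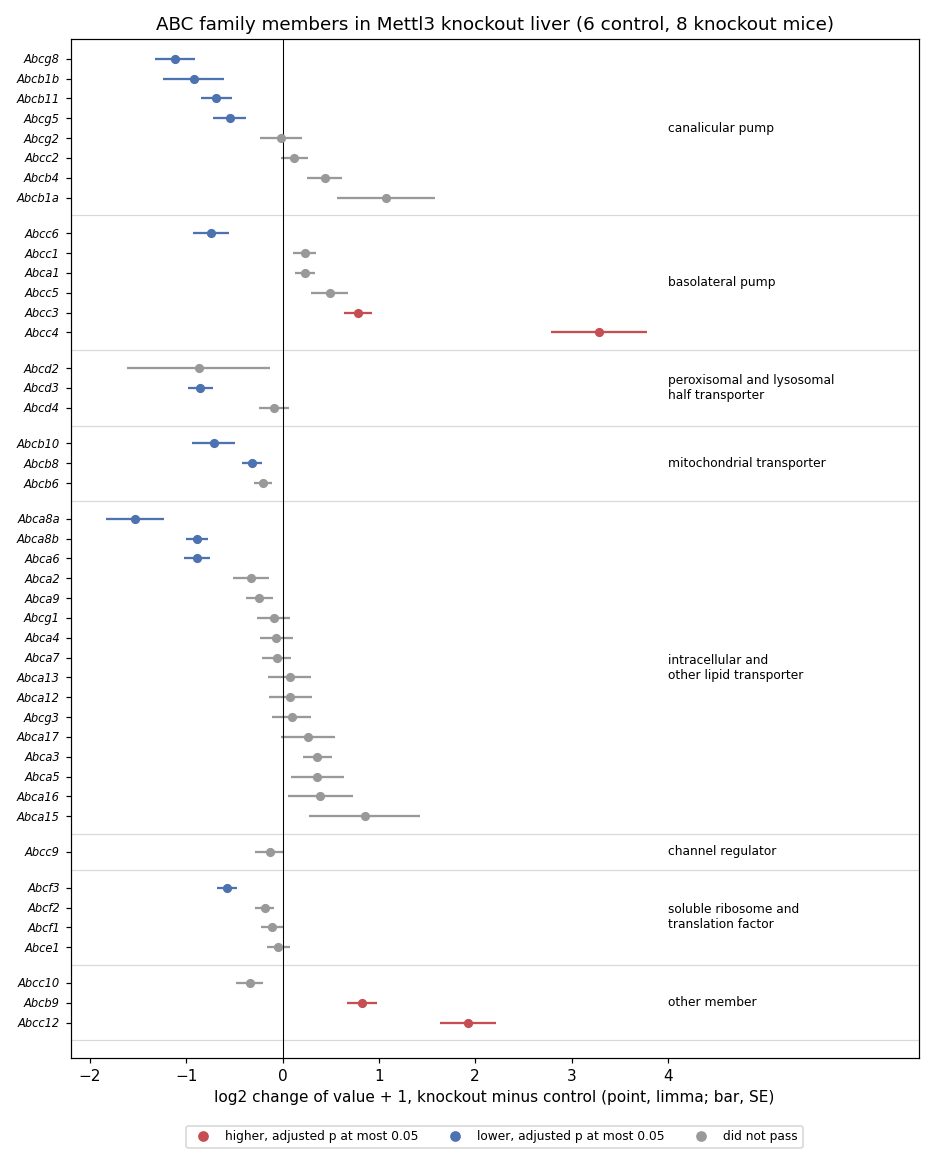
Log2 change of 44 of the 46 tested members (x axis, knockout minus control on the log2(value + 1) scale; points are limma estimates, bars are SE), grouped by role, with 6 control and 8 knockout mice. The changes run from -1.53 for Abca8a to 3.28 for Abcc4, and the called canalicular pumps all lie below 0.

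Of the 8 canalicular pumps, 4 fell and none rose, with a median log2 change of -0.28. With equal sums 1 fell, 2 rose and the median was 0.06. The median over all genes tested was 0.38 with that scaling, and 33.3% were called higher and 3.68% lower. Abcb11, the bile salt export pump (BSEP; ENSMUSG00000027048, chr2:69238282-69342616, minus strand), was the most abundant family member per kilobase of merged exon in both groups. That rank depends on the length used, as given below. Abcb11 had a lowest, median and highest value of 9602, 14362 and 18134 in controls and of 6619, 8343 and 11393 in knockouts. Its mean fell from 14089 ± 3188 to 8722 ± 1809.7 (SD; log2 change -0.69, SE 0.16, limma adjusted p = 0.00753). All 8 knockouts lay below the control mean, but knockouts 5 and 8, at 11384 and 11393, reached into the range of controls 1 and 2. The estimate without knockouts 3, 6 and 7 was -0.52 (adjusted p = 0.0457). The call was lost with both other scalings, at -0.35 (adjusted p = 0.115) with equal sums and at -0.33 (adjusted p = 0.131) with quantile normalization.

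Abcb4 (ENSMUSG00000042476, chr5:8893717-8959231, plus strand) is the floppase that supplies bile with phosphatidylcholine, which shields the ducts from bile salts. Abcb4 had a lowest, median and highest value of 3273, 5254 and 6316 in controls and of 4701, 6029 and 9419 in knockouts. The highest 3 values were those of knockouts 3, 6 and 7, at 9403, 9419 and 7843, and the other 5 knockouts overlapped the controls. Its log2 change of 0.44 did not pass (SE 0.18, limma adjusted p = 0.102). It passed with equal sums, at 0.78 (adjusted p = 0.0145), and was 0.18 (adjusted p = 0.456) without those knockouts.

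Abcg5 and Abcg8 are the subunits of the sterol pump that sends cholesterol and plant sterols into bile. They lie on opposite strands of chromosome 17 (Abcg5, ENSMUSG00000040505, chr17:84658234-84683011, minus strand; Abcg8, ENSMUSG00000024254, chr17:84676302-84700333, plus strand), and the annotated genes overlap. The strand setting of the counting is not given in the sources used here, so reads from the shared stretch may not be told apart. Abcg8 had a lowest, median and highest value of 1871, 1997 and 2316 in controls and of 523, 855 and 1470.4 in knockouts. Every knockout lay below every control, and knockout 4 was the lowest. Its mean fell from 2019 ± 162 to 985 ± 356 (SD; log2 change -1.12, SE 0.21, limma adjusted p = 0.00131). For the partner subunit, Abcg5 had a lowest, median and highest value of 1109.9, 1274 and 1556 in controls and of 476, 901 and 1352 in knockouts. The Abcg5 mean fell from 1291 ± 161 to 908 ± 239.8 (SD; log2 change -0.55, SE 0.17, limma adjusted p = 0.0306), and knockout 5, at 1352, stood within the control range. The Abcg5 call did not survive the loss of control 1 (adjusted p = 0.0523), control 2 (0.0596), control 5 (0.0514) or control 6 (0.0701), nor of knockouts 3, 6 and 7 together (0.0802), nor equal sums (0.381) or quantile normalization (0.0753). With equal sums Abcg8 stayed called at -0.78 (adjusted p = 0.00733).

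Abcc2, the canalicular exporter of bilirubin glucuronide and other conjugates (ENSMUSG00000025194, chr19:43782192-43840740, plus strand), showed no call. Abcc2 had a lowest, median and highest value of 989, 1113 and 1201 in controls and of 887, 1104 and 1774 in knockouts. Knockouts 3, 6 and 7 stood above all controls, at 1236, 1774 and 1649.9, and the other knockouts were at 887 to 1105 (log2 change 0.12, SE 0.14, limma adjusted p = 0.570). The sign of its change turned without knockouts 3, 6 and 7, at -0.09 (adjusted p = 0.524), and it was called with equal sums, at 0.46 (adjusted p = 0.0413). For Abcg2, an exporter of drugs and urate (ENSMUSG00000029802, chr6:58584523-58695676, plus strand), the groups covered nearly the same range. Abcg2 had a lowest, median and highest value of 296, 554 and 682 in controls and of 314, 522 and 675 in knockouts, a log2 change of -0.02 with an SE of 0.21 (limma adjusted p = 0.969), whose sign depended on the scaling and reached 0.32 (adjusted p = 0.209) with equal sums. Abcg2 did differ between the classes of libraries. It was lower in Xist-high libraries by a log2 change of -0.65 with genotype in the limma fit (adjusted p = 0.0326; 1.95% of all genes differed between the classes), a difference that runs together with depth.

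Abcb1a and Abcb1b encode the mouse P-glycoproteins, broad drug exporters that lie next to each other and to Abcb4 on chromosome 5 (Abcb1a, ENSMUSG00000040584, chr5:8660077-8748575, plus strand; Abcb1b, ENSMUSG00000028970, chr5:8798147-8866315, plus strand). Of the 31-base words of the Abcb1b transcript, 24.9% also occur in Abcb1a, so estimated counts of the 2 genes are less certain. Abcb1a had a lowest, median and highest value of 26.5, 36.8 and 117 in controls and of 46.4, 72.4 and 355 in knockouts. Knockouts 3, 6 and 7 were at 238, 355 and 238, above all controls, and the other knockouts at 46.4 to 73.6 lay within the control range (log2 change 1.07, SE 0.51, limma adjusted p = 0.146). For the neighbour, Abcb1b had a lowest, median and highest value of 120.2, 204 and 520.4 in controls and of 53.0, 114 and 205 in knockouts. The Abcb1b mean fell from 235 ± 146 to 117 ± 45.0 (SD; log2 change -0.92, SE 0.31, limma adjusted p = 0.0462). Control 2, at 520.4, stood far above the next control at 222. The call was lost without control 1 (adjusted p = 0.0789), control 2 (0.0994, log2 change -0.66), control 3 (0.0813), control 6 (0.0663), or any of knockouts 1, 2, 4, 5, 6, 7 and 8 (0.0517 to 0.0757), and with equal sums (0.175).

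**Figure D2:**
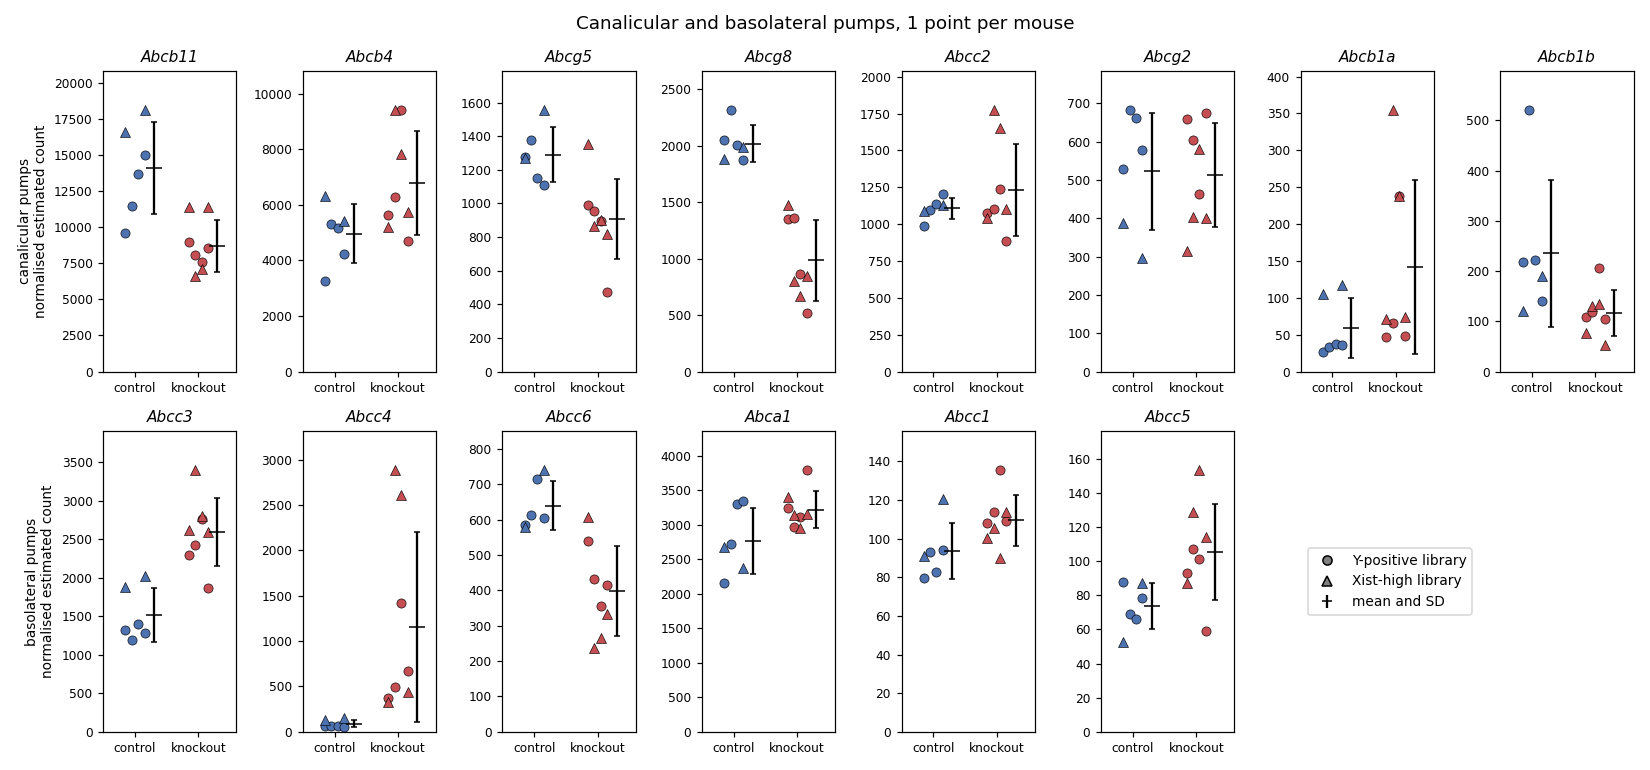
Normalised estimated count (y axis, linear, from 0) of the 8 canalicular pumps (top) and 6 basolateral pumps (bottom) in each of 6 control (blue) and 8 knockout (red) mice; circles are Y-positive and triangles Xist-high libraries, black marks are mean and SD. The Abcc4 and Abcg8 groups do not overlap, and the highest Abcc4, Abcb1a and Abcb4 points are knockouts 3, 6 and 7.

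On the basolateral side, 2 of 6 pumps rose and 1 fell, with a median log2 change of 0.36. With equal sums 5 rose, none fell and the median was 0.70. That scaling called 33.3% of all genes higher and 3.68% lower, with a median of 0.38. Abcc4 (MRP4; ENSMUSG00000032849, chr14:118482692-118706219, minus strand), which exports bile acids together with glutathione as well as cyclic nucleotides, had the largest change of the family. Abcc4 had a lowest, median and highest value of 58.3, 65.6 and 153 in controls and of 332, 582 and 2885 in knockouts. The controls comprised 4 Y-positive libraries at 58.3 to 66.0 and 2 Xist-high libraries at 131 and 153, and even the lowest knockout was at 332. Knockouts 6, 7 and 3 were at 2885, 2610.5 and 1425, and the other 5 at 332 to 675. The mean rose from 89.3 ± 41.4 to 1153 ± 1047 (SD), and on the log2(value + 1) scale by 3.28 (SE 0.50, limma adjusted p = 0.000313), or 9.74-fold. Without knockouts 3, 6 and 7 the change was 2.42 (adjusted p = 0.00014), still called. Within the Y-positive libraries it was 3.34 (adjusted p = 0.000740).

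The 250 bases before the RefSeq start of Abcc4 are shown because it had the largest change. They lie at chr14:118706220-118706469 on GRCm38.p6, minus strand, upstream of the first exon. Capitals mark a CACGTG E-box, GC boxes (GGGCGG on either strand) and a TGACNNNGC core, the motif bound by NRF2-type factors, which reads GCGGGGTCA here and abuts the last GC box.

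Abcc4: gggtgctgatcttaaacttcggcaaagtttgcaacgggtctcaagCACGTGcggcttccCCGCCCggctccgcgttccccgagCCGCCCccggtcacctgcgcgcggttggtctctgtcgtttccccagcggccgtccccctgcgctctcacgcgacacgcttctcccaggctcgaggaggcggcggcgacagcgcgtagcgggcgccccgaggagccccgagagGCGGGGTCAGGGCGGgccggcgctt

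A promoter window was matched for 38 of the 50 members. Searched on both strands, TGACNNNGC occurred in 3 of the 38 (Abcc4, Abcc2 and Abcc10) and in 10.2% of the 32851 windows of all genes, GGGCGG in 16 and 32.7%, and CACGTG in 5 and 6.02%. AGGTCA, a nuclear receptor recognition site, occurred in 5 windows, Abcb11 among them, and in 14.02% of all windows. A match is a description of the letters, and binding was not measured.

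Abcc3 (MRP3; ENSMUSG00000020865, chr11:94343295-94392997, minus strand), the basolateral exporter of bile acids and glucuronides, rose in all 8 knockouts relative to the control mean. Abcc3 had a lowest, median and highest value of 1187, 1359.5 and 2027 in controls and of 1863, 2607 and 3395 in knockouts. Its mean rose from 1514 ± 349 to 2595 ± 442 (SD; log2 change 0.79, SE 0.15, limma adjusted p = 0.00133), and knockout 4, at 1863, was the only knockout inside the control range, below control 5 at 1875 and control 6 at 2027. Both Abcc3 and Abcc4 stayed called with equal sums and without knockouts 3, 6 and 7. Abcc6 (ENSMUSG00000030834, chr7:45967555-46030302, minus strand), which supports ATP release from hepatocytes and is mutated in pseudoxanthoma elasticum, moved the other way. Abcc6 had a lowest, median and highest value of 579, 609.6 and 740.2 in controls and of 237, 387 and 607 in knockouts. The Abcc6 mean fell from 639.8 ± 70.0 to 399 ± 128 (SD; log2 change -0.74, SE 0.19, limma adjusted p = 0.0101), with the lowest values in knockouts 6 and 7 and with knockout 5, at 607, inside the control range. It was not called with equal sums, at -0.40 (adjusted p = 0.0779).

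The remaining 3 basolateral pumps did not pass, although all 3 were called higher with equal sums. Abca1 (ENSMUSG00000015243, chr4:53030787-53159895, minus strand) loads cholesterol and phospholipid onto apolipoprotein A-I. Abca1 had a lowest, median and highest value of 2160.0, 2699 and 3347 in controls and of 2951, 3147 and 3787 in knockouts (log2 change 0.23, SE 0.11, limma adjusted p = 0.130; equal sums 0.57 (adjusted p = 0.000765)). The 8 knockouts were all above the control mean, but controls 3 and 4 lay among them. Abcc1, a general exporter of glutathione conjugates (ENSMUSG00000023088, chr16:14361558-14475737, plus strand), was low in this tissue. Abcc1 had a lowest, median and highest value of 79.7, 92.0 and 120.3 in controls and of 89.9, 109 and 135 in knockouts (log2 change 0.23, SE 0.12, limma adjusted p = 0.182; equal sums 0.56 (adjusted p = 0.00855)). Abcc5, an exporter of organic anions (ENSMUSG00000022822, chr16:20331303-20426394, minus strand), was likewise low. Abcc5 had a lowest, median and highest value of 52.9, 73.7 and 87.7 in controls and of 59.0, 104 and 153 in knockouts (log2 change 0.49, SE 0.19, limma adjusted p = 0.0749; equal sums 0.82 (adjusted p = 0.00657)). Leaving out knockout 4, its lowest knockout value at 59.0, brought Abcc5 to a log2 change of 0.60 (adjusted p = 0.0148).

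Ratios of members within a library do not depend on how libraries are scaled. The ratios of 4 pairs were chosen after their values were seen to differ, so they are given as a description with no test. The ratio of Abcb4 to Abcb11, phospholipid floppase to bile salt pump, was 0.357 ± 0.0660 in controls (SD, n = 6) and 0.835 ± 0.370 in knockouts (SD, n = 8). It lay at 0.282 to 0.464 in controls and at 0.459 to 1.42 in knockouts, so the groups met only at their edges. The ratio of the basolateral Abcc3 to the canalicular Abcc2 was 1.37 ± 0.319 in controls and 2.14 ± 0.252 in knockouts, with controls at 1.06 to 1.80 and knockouts at 1.70 to 2.51. The Abcg8 to Abcg5 ratio was 1.58 ± 0.174 in controls and 1.08 ± 0.224 in knockouts, with the uncertainty of reads from their short shared sequence. All 8 knockouts were below the control mean, and the Xist-high control 6, at 1.28, was below knockouts 1 and 2. The Abcb1a to Abcb1b ratio was 0.351 ± 0.324 in controls and 1.17 ± 0.779 in knockouts, with the uncertainty of their shared sequence. It lay at 0.0643 to 0.876 in controls and at 0.425 to 2.70 in knockouts, so the groups overlapped. The Xist-high controls 5 and 6, at 0.876 and 0.620, were above knockouts 1, 2 and 4, at 0.425, 0.557 and 0.456. Without knockouts 3, 6 and 7 the log2 differences of the 4 ratios, in this order, were 0.70, 0.75, -0.40 and 1.49, beside 1.12, 0.67, -0.57 and 2.02 with all libraries. Each kept its sign in both classes, at 1.07, 0.89, -0.49 and 2.13 in the Y-positive and at 1.20, 0.25, -0.55 and 1.09 in the Xist-high libraries.

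**Figure D3:**
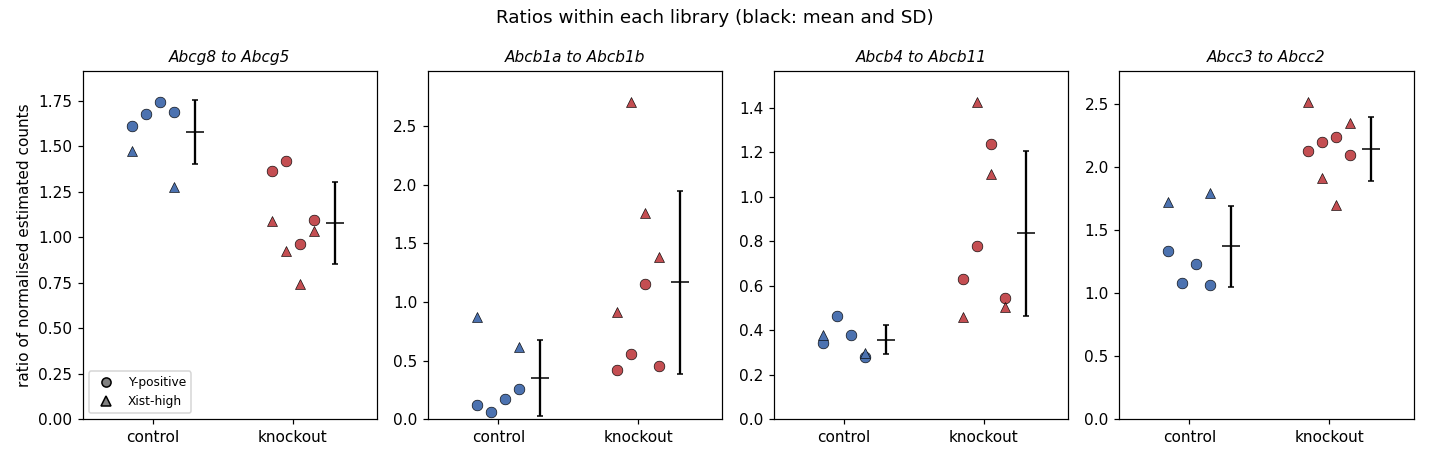
Ratio of normalised estimated counts within each library (y axis, linear, from 0) for 4 pairs of members in 6 control (blue) and 8 knockout (red) mice; circles are Y-positive and triangles Xist-high libraries, black marks are mean and SD. Abcb4 to Abcb11 and Abcc3 to Abcc2 are higher in knockouts, and Abcg8 to Abcg5 is lower.

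Per kilobase of exon, the values of all 50 members summed to 10868 ± 1008 in controls and 8349 ± 541 in knockouts (SD). This family sum is on the authors' scaling, on which the summed values of whole libraries were lower in knockouts too. Those were 24.1 ± 2.43 megaunits of value in controls and 19.1 ± 1.37 in knockouts (SD). A fall of the family sum relative to the other genes was not tested. The 8 canalicular pumps made up 41.4% ± 3.28 of the family sum in controls and 39.03% ± 2.20 in knockouts, with overlapping ranges. The 6 basolateral pumps made up 6.17% ± 0.250 in controls, from 5.91% to 6.49%, and 12.4% ± 2.43 in knockouts, from 10.3% to 16.3%, so these ranges did not overlap. Abcb11 held rank 1 in both groups, at 24.9% ± 3.71 and 20.2% ± 3.55, and Abcd3 rank 2, at 16.8% ± 2.05 and 12.1% ± 1.55. Below them the order changed: Abcb4 went from rank 5 to rank 3, Abcc3 from 11 to 4 and Abcc4 from 34 to 13, while Abcg8 went from 4 to 11. Neighbours at ranks 4 to 7 in controls (Abcg8, Abcb4, Abcf2 and Abcg5, at 5.01%, 4.83%, 4.66% and 4.41%) did not differ beyond their SDs of 0.651 to 0.803. These are shares of an RNA sum, so a lower share of Abcb11 raises the others, and no test was made of them. They also depend on the length used, here the merged exons of each gene. Merged exons held 5146 bases for Abcb11, 6593 for Abcd3 and 9383 for Abcb4. The transcripts with the longest coding sequence held 5025, 3489 and 4079 bases. With those lengths the order would differ, and Abcd3 would stand above Abcb11 in the means of both groups.

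**Figure D4:**
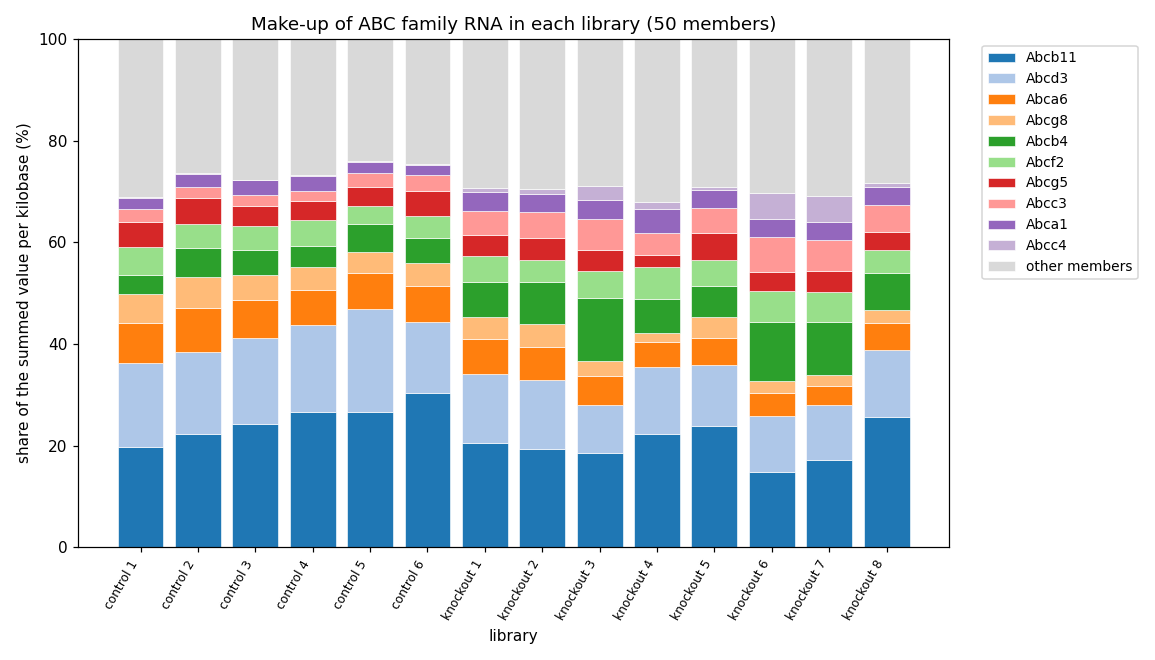
Share of the summed value per kilobase of merged exon of all 50 members (y axis, percent) that each of 10 named members takes in each of the 14 libraries (x axis); grey is the remaining 40 members. Abcb11 takes the largest share in every library, and the Abcc3, Abcc4 and Abcb4 shares are widest in knockouts 3, 6 and 7.

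Other genes of bile formation moved in both directions. Of 16 canalicular partners, the scaffolds Pdzk1 at -0.94 (SE 0.21, adjusted p = 0.00470) and Slc9a3r1 at -0.93 (SE 0.23, adjusted p = 0.00972) fell, and 4 rose, among them the membrane fusion protein Stx3 at 0.79 (SE 0.21, adjusted p = 0.0127). Of 8 tested sinusoidal carriers outside the family, 3 fell and none rose. These were Slco1a1 at -3.48 (SE 0.71, adjusted p = 0.00269), the bile acid importer Slc10a1 at -1.70 (SE 0.39, adjusted p = 0.00579) and Slco1b2 at -1.21 (SE 0.25, adjusted p = 0.00334). Of 16 regulators known to act on these pumps, 7 fell and 3 rose. The largest falls were the xenobiotic receptor Nr1i3 at -1.42 (SE 0.27, adjusted p = 0.00157), Ppara at -0.91 (SE 0.15, adjusted p = 0.000582) and the bile acid receptor FXR, Nr1h4 at -0.83 (SE 0.14, adjusted p = 0.000822). The 3 that rose were Nfe2l2 at 0.70 (SE 0.22, adjusted p = 0.0294), which encodes NRF2, Foxo1 at 0.47 (SE 0.15, adjusted p = 0.0333) and Ahr at 0.41 (SE 0.12, adjusted p = 0.0254). Of 12 sterol and lipoprotein partners, Apom at -1.23 (SE 0.14, adjusted p = 3.20e-05) and Lcat at -0.99 (SE 0.16, adjusted p = 0.000475) fell and none rose. All p-values here are limma's.

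Among the peroxisomal and lysosomal members, Abcd3 fell and the other 3 did not pass. Abcd3 (PMP70; ENSMUSG00000028127, chr3:121758774-121815302, minus strand) imports branched-chain fatty acids and bile acid intermediates into peroxisomes. Abcd3 had a lowest, median and highest value of 10318, 11475 and 16299.8 in controls and of 5005, 6917 and 7653 in knockouts. All knockouts were below all controls, and control 5, at 16299.8, was the highest library. The mean fell from 12092 ± 2239.6 to 6672 ± 944 (SD; log2 change -0.85, SE 0.13, limma adjusted p = 0.000303), and the call held with equal sums, at -0.51 (adjusted p = 0.00468). Abcd2, a relative for very long-chain acids, spanned 25.6 to 245 in controls and 6.92 to 147 in knockouts. It was higher in Xist-high libraries by a log2 change of 2.37 with genotype in the fit (limma adjusted p = 0.0189), a difference that runs together with depth. The classes overlapped, with Y-positive control 4 at 145 and Xist-high knockouts 5 and 8 at 96.9 and 48.6. Abcd4, the lysosomal cobalamin exporter, had a log2 change of -0.09. Of 12 peroxisomal partners 8 fell and none rose, among them Slc27a2 at -1.42 (SE 0.16, adjusted p = 3.53e-05) and Scp2 at -0.72 (SE 0.22, adjusted p = 0.0288). Of 7 cobalamin partners, Cd320 at 0.49 (SE 0.16, adjusted p = 0.0357) rose and none fell.

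Of the 4 mitochondrial members 3 fell, Abcb10 and Abcb8 among them. Abcb10 (ENSMUSG00000031974, chr8:123952459-123983122, minus strand), an inner-membrane transporter needed for heme synthesis in red cell precursors, fell from 962 ± 236 to 596 ± 179.5 (SD; log2 change -0.72, SE 0.22, limma adjusted p = 0.0277). Abcb10 had a lowest, median and highest value of 626, 981 and 1205 in controls and of 331, 675 and 785 in knockouts. Knockouts 3, 6 and 7 were the lowest, at 385, 331 and 448, and without them the change was -0.38 (adjusted p = 0.122). The call was also lost without control 1 (adjusted p = 0.0647), control 3 (0.0661), control 4 (0.0622) or knockout 3 (0.0525).

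Abcb8 (ENSMUSG00000028973, chr5:24393663-24410054, plus strand), an inner-membrane member, fell from 199 ± 23.8 to 159 ± 17.6 (SD; log2 change -0.32, SE 0.11, limma adjusted p = 0.0417). Abcb8 had a lowest, median and highest value of 160.3, 197 and 224 in controls and of 136, 155 and 191 in knockouts. Control 2, at 160.3, was lower than knockouts 1, 5 and 7. The Abcb8 call was lost in 10 of the 14 fits that left out 1 library, all but those without control 2 and knockouts 1, 5 and 7, with adjusted p-values of 0.0571 to 0.0966. With equal sums none of the mitochondrial members was called, and Abcb8 stood at 0.02. Abcb6 had a log2 change of -0.20, but 91.7% of its 31-base words are shared with the annotated gene Gm29253, so its count is uncertain. Of 13 iron-sulfur and heme partners 5 fell and 1, Glrx5 at 0.33 (SE 0.10, adjusted p = 0.0305), rose. The largest falls were Alas1 at -1.89 (SE 0.24, adjusted p = 9.88e-05), the first enzyme of heme synthesis, Slc25a38 at -0.67 (SE 0.21, adjusted p = 0.0306) and Cpox at -0.57 (SE 0.14, adjusted p = 0.00985).

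Of 18 lipid transporters without a canalicular or basolateral assignment, 16 were tested, 3 fell and none rose. The 3 lie in the cluster of 5 ABCA genes on chromosome 11, all on the minus strand, which runs Abca8b, Abca8a, Abca9, Abca6, Abca5 by coordinate. Along it the log2 changes were -0.89, -1.53, -0.24, -0.88 and 0.36. Abca8a had a lowest, median and highest value of 349, 504 and 614 in controls and of 83.0, 206 and 339 in knockouts (ENSMUSG00000041828, chr11:110025634-110095978, minus strand). Every knockout was below every control, and knockouts 3, 6 and 7 were the lowest, at 92.8, 83.0 and 101 (log2 change -1.53, SE 0.30, limma adjusted p = 0.00214). Without them the change was -1.01 (adjusted p = 0.00214). Abca8b had a lowest, median and highest value of 1321, 1579.9 and 1842 in controls and of 707, 807 and 1082 in knockouts (ENSMUSG00000020620, chr11:109932190-109995845, minus strand), again without overlap (log2 change -0.89, SE 0.12, limma adjusted p = 0.000112). The cluster's most abundant gene was Abca6 (ENSMUSG00000044749, chr11:110176820-110251776, minus strand). Abca6 had a lowest, median and highest value of 3933, 4419 and 4689 in controls and of 1585, 2488 and 3151 in knockouts, and the groups were apart here too (log2 change -0.88, SE 0.13, limma adjusted p = 0.000325). The calls of these 3 held with equal sums, at -1.20 (adjusted p = 0.00364), -0.55 (adjusted p = 0.00664) and -0.55 (adjusted p = 0.00650). Abca9, which lies between Abca8a and Abca6, ranged from 99.4 to 136 in controls and from 78.0 to 134 in knockouts (limma adjusted p = 0.250). Abca5, at the far end, was at 80.3 to 108 in controls, 185, 247 and 215 in knockouts 3, 6 and 7 and 71.3 to 91.6 in the other knockouts. The other 11 tested members of this group ranged from -0.32 for Abca2 to 0.85 for Abca15, and Abca3 was called with equal sums, at 0.70 (adjusted p = 0.00401), and among the Y-positive libraries alone.

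Of the 4 soluble members Abcf3 fell and the other 3 did not pass. Abcf3 (ENSMUSG00000003234, chr16:20548577-20561379, plus strand) is a soluble ABCF protein of the translation machinery. Abcf3 had a lowest, median and highest value of 760.2, 887 and 1079 in controls and of 507, 581 and 746 in knockouts. Every knockout lay below every control, the nearest being knockout 5 at 746 and control 2 at 760.2. The mean fell from 894 ± 109.5 to 598 ± 79.0 (SD; log2 change -0.58, SE 0.10, limma adjusted p = 0.00105), and with equal sums it was -0.24 (adjusted p = 0.0600). Abce1, which splits ribosomes after termination, Abcf1 and Abcf2 had log2 changes of -0.04, -0.11 and -0.19, which turned to 0.30, 0.23 and 0.15 with equal sums, none of them called. Of 9 ribosome recycling partners 2 rose and 2 fell, led by Pelo at 0.84 (SE 0.19, adjusted p = 0.00499), which works with Abce1, Hbs1l at -0.56 (SE 0.13, adjusted p = 0.00700) and Mcts1 at -0.56 (SE 0.10, adjusted p = 0.00140).

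Among the members with no assigned role here, Abcc12 and Abcb9 rose. Abcc12 (ENSMUSG00000036872, chr8:86482260-86580686, minus strand) was at 20.7 to 46.4 in controls, with a median of 28.2, and at 59.9 to 202 in knockouts, with a median of 99.5. All knockouts were above all controls (log2 change 1.93, SE 0.29, limma adjusted p = 0.000289). Abcb9 had a lowest, median and highest value of 47.3, 57.5 and 73.0 in controls and of 77.3, 108 and 137 in knockouts (ENSMUSG00000029408, chr5:124061530-124095798, minus strand). This lysosomal peptide transporter, related to the antigen transporters Tap1 and Tap2, also showed no overlap between the groups (log2 change 0.82, SE 0.15, limma adjusted p = 0.00141). Both calls held with equal sums and without knockouts 3, 6 and 7, at 1.72 (adjusted p = 0.00213) and 0.76 (adjusted p = 0.00923). Abcc10 had a log2 change of -0.34 (limma adjusted p = 0.0954). Tap1, Tap2 and Cftr belong to the family under other symbols, and their log2 changes of -0.09, -0.02 and 0.06 did not pass (0.25, 0.31 and 0.39 with equal sums, none called). Of 10 peptide loading partners 5 fell and none rose, led by B2m at -0.77 (SE 0.14, adjusted p = 0.00102), Psmb9 at -0.67 (SE 0.21, adjusted p = 0.0317) and Psmb8 at -0.67 (SE 0.16, adjusted p = 0.00875). The potassium channel regulator Abcc9 had a log2 change of -0.13, and neither tested channel partner passed, Kcnj11 at 0.56 (SE 0.34, adjusted p = 0.252) having the smaller p.

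Each partner gene named above other than Tap1 and Tap2 kept its sign with equal sums, but Scp2, Slc25a38, Cpox, Psmb8, Psmb9, Hbs1l and Mcts1 lost their calls. With that scaling the counts of higher and lower genes were 7 and 2 of 16 canalicular partners, 0 and 3 of 8 sinusoidal carriers, 6 and 3 of 16 regulators, 3 and 2 of 12 sterol partners, 1 and 3 of 12 peroxisomal partners, 4 and 0 of 7 cobalamin partners, 4 and 1 of 13 iron-sulfur and heme partners, 2 and 1 of 10 peptide loading partners and 2 and 0 of 9 ribosome recycling partners. Over all genes tested, the shares with equal sums were 33.3% higher and 3.68% lower. Without knockouts 3, 6 and 7 the calls of Nfe2l2 (limma adjusted p = 0.108), Ahr (0.0767), Cd320 (0.117), Scp2 (0.112), Slc25a38 (0.103) and Psmb9 (0.137) were lost.

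The 4 members not tested were Abca14, Abcb5, Abcc8 and Abcg4, whose values stayed between 1.67 and 26.6 in the 14 libraries. Low values in the shallow libraries are the least precise, since 1 read was worth 0.604 to 1.71 units of value.

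The change was compared between the classes of libraries, 4 controls and 4 knockouts that were Y-positive and 2 controls and 4 knockouts that were Xist-high. All 17 called members had the same sign in both classes, as had 33 of the 46 tested. No member had a called difference between the classes in the limma interaction fit. The same held when the fit was repeated with a pseudocount of 0.1, with no filter, with equal sums or without knockouts 3, 6 and 7. At an unadjusted p of at most 0.05 there was 1 member, Abca17, beside 5.92% of all genes, of which 0.0552% were called. In the Y-positive libraries alone 14 members were called (15.7% of all genes), 5 higher (7.39%) and 9 lower (8.30%). In the Xist-high libraries alone limma called 0 members (0.930% of all genes, 0.730% higher and 0.200% lower), with 5 higher and 9 lower at an unadjusted p of at most 0.05. Abcg8 changed by like amounts, at -1.11 in the Y-positive and -1.09 in the Xist-high libraries (limma adjusted p = 0.143 in the latter). Abcc4 was at 3.34 and 2.85, the latter not called (limma adjusted p = 0.180). Its Xist-high knockouts 6 and 7 were at 2885 and 2610, knockouts 5 and 8 at 332 and 437, and the Xist-high controls at 131 and 153. Among Y-positive libraries, knockout 3 was at 1425, knockouts 1, 2 and 4 at 368 to 675, and controls at 58.3 to 66.0. Abcc12 was at 2.30 in the Y-positive and 1.45 in the Xist-high libraries, a difference of -0.85 that did not pass (limma unadjusted p = 0.165).

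**Figure D5:**
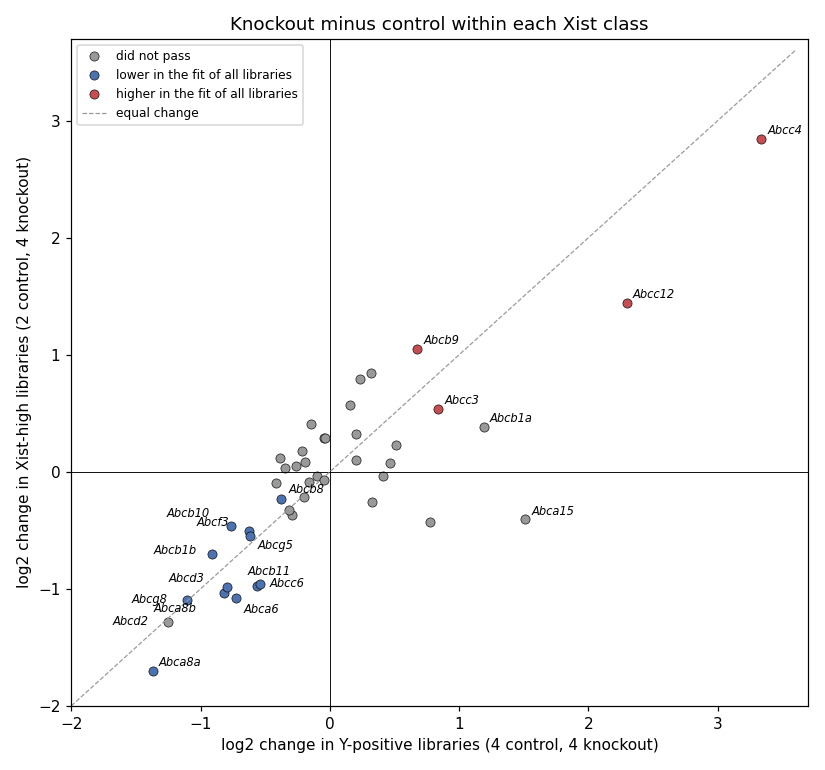
Log2 change (knockout minus control) of 44 of the 46 tested members in the Y-positive libraries (x axis, 4 control and 4 knockout mice) and in the Xist-high libraries (y axis, 2 control and 4 knockout mice); red and blue points were called higher or lower over all 14 libraries, and the dashed line marks equal change. All 16 called members shown lie in the lower left or upper right corner of the plot.

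Markers of some cell types differed between the groups. The values of 8 hepatocyte markers summed to 814107 to 948023 in controls and 370279 to 750217 in knockouts, and 5 of the 8 were called lower, among them Alb at -1.07 and Hnf4a at -0.52. Of 8 cholangiocyte markers 4 were called higher, Sox9, Tspan8, Epcam and Spp1, with sums of 1116 to 2076 in controls and 1769.5 to 4240.2 in knockouts. Of 8 endothelial markers 4 were lower, of 9 stellate and mural cell markers 1, Ngfr, was higher, and of the Kupffer cell, lymphocyte and erythroid markers none was called. No marker was at 0 in every library, and the lymphocyte marker Trbc2 was at 0 in at least 1. The sums are on the authors' scaling and weigh the most abundant markers most. Median log2 changes were -0.72 for the hepatocyte and 0.93 for the cholangiocyte markers, and -0.38 and 1.26 with equal sums. With equal sums 3 hepatocyte markers were lower, 5 cholangiocyte markers were higher and no endothelial marker was called. Of all genes tested 33.3% were then higher and 3.68% lower. The part of these cell types in the changes of the family was not tested.

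Since Mettl3 methylates adenosine mostly in the sequence GGACT and its relatives, often near the end of the coding sequence, the sense-strand GGACT sites of the members' transcripts were counted. No m6A was measured here. The 46 tested members had a median of 1.02 sites per kilobase, beside 1.04 for 16146 tested protein-coding genes. The median was 1.42 for the 4 higher members and 1.01 for the 13 lower. A site within 500 bases of the coding end was present in 63.0% of the tested members and in 63.6% of the protein-coding genes, in 4 of 4 higher and in 8 of 13 lower members. Abcc3 had the highest density, at 2.80 per kilobase with 14 sites, and Abcg3 had none. For the 9 members whose groups did not overlap, the site nearest the coding end is printed with 10 bases on either side, GGACT in capitals, on GRCm38 with GENCODE M21 transcripts.

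Abcc4 (chr14:118484249-118484273, minus strand, last exon, 73 bases after the coding end): tgcacttggaGGACTacagcacacc
Abcc12 (chr8:86505212-86505236, minus strand, last exon, coding): tgcagaggttGGACTgtaaaggtcc
Abcb9 (chr5:124062703-124062727, minus strand, last exon, coding): agcaccccttGGACTacacagccag
Abcg8 (chr17:84698852-84698876, plus strand, last exon, 66 bases after the coding end): aggaggagccGGACTggggacaagg
Abcf3 (chr16:20560522-20560546, plus strand, last exon, 20 bases after the coding end): agttgagtaaGGACTgtgcctagga
Abcd3 (chr3:121765014-121765038, minus strand, exon 21 of 23, coding): tggatgtggaGGACTacatttacag
Abca6 (chr11:110191627-110191651, minus strand, exon 26 of 39, coding): tgcattgaatGGACTcctggttgtc
Abca8a (chr11:110057186-110057210, minus strand, exon 22 of 39, coding): tgggctacttGGACTgttcgcacca
Abca8b (chr11:109933546-109933570, minus strand, last exon, 953 bases after the coding end): ttatatagtgGGACTgctattaggt

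Sites near the coding end were thus found in the 3 separated higher members and in Abcg8, Abcf3 and Abcd3, and not within 500 bases in the 3 chromosome 11 genes. The site is a match of letters, and its methylation was not measured.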

How the data were processed

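Libraries from the total RNA of 14 livers were made with Takara's stranded SMARTer Pico kit, per the labels' protocols. The submitters' processing notes name kallisto, sleuth and the mm10 build; versions and the strand setting are not given in the sources used here. The deposited signal per library is a normalised estimated count per gene, that is, an estimated count divided by a size factor, as read from the values: 27.9% to 29.8% of low values per library were whole multiples of 1 read (within 0.02 of a read). The authors also deposited p-values and q-values. The 75859 lines of their table were reduced to 54446 genes.

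The design allowed for counts, but the values are not counts, so limma 3.58.1 (R 4.3.3, trended prior variance) was fitted to log2(value + 1) for the 23554 genes that reached 10 in 6 or more of the 14 libraries, knockout minus control with no covariate. P-values were adjusted by Benjamini-Hochberg over all genes tested, and the threshold was 0.05. Fold changes on this scale understate the change of low genes. The fit was tested on simulated data. Depth was the sum of a library's values divided by the worth of 1 read, and no binomial interval was given because the values are estimates. Levels per kilobase used merged exon length in GENCODE M21 (GRCm38), which gave positions for all 50 members. Promoters came from RefSeq (GRCm38.p6).

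Classes of libraries came from Xist and Y-linked genes, since sex was not labelled. Members, roles, partner lists and markers were chosen with earlier results of these data known, and the 4 ratios and their alternatives after seeing the data. Every canalicular and basolateral pump and every called member is named, and of each partner list the 3 largest called changes; a few genes that this rule or the lists hold are not reported here, and the counts include them. The alternatives were the threshold, a minimum change of 1.5-fold, filters, pseudocounts of 0.1 and 0.5, 2 other scalings, the variance trend, covariates for class and depth, each class alone, libraries left out, a replicate block and the authors' q.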

Additional observations from a re-analysis of the deposited data

Results flagged for a closer look

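In 48 groups, the 24 named members in controls and in knockouts, 3 had a highest library separated from the others by more than the 95% limit of Dixon's test, and chance flags about 1 in 20 such groups. Abcb1b in control 2 was 520.4, against 222 in the next control. Abcd3 in control 5 was 16299.8, against 12344 in the next. Abcc1 in control 6 was 120.3, against 94.1 in the next.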

How the results depend on the processing

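For 24 named members each change was recomputed under 30 alternatives. Of these 720 values, 599 kept direction and side of the threshold, 96 kept the direction and lost the call, 8 gained it and 17 changed sign. The 4 higher calls were 10 with equal sums, 7 with quantile normalization and 0 among the Xist-high libraries alone, and 4 to 5 when 1 library was left out. The 13 lower calls were 7 at an adjusted p of at most 0.01, 8 with no filter, 5 with equal sums, 10 with quantile normalization (Abcb11 and Abcg5 being among the 3 lost) and 0 among the Xist-high libraries alone; without 1 library there were 8 to 13, the fewest without control 1. Equal sums ended the calls of 8 members, among them Abcf3, Abcb11, Abcb1b, Abcb8, Abcc6, Abcb10 and Abcg5, and no filter those of 5, among them Abcb1b, Abcb8, Abcb10 and Abcg5. The authors' q ended that of Abcb8 (0.148). The cause was not tested, other than that no filter more than doubles the genes tested and each class alone has fewer mice. The difference between classes called no member under any of its 4 alternatives. Sign changes were Abcb8 with equal sums (0.021), Abcc1 in Xist-high libraries (-0.038), Abcc2 in Y-positive libraries (-0.047) and without knockouts 3, 6 and 7 (-0.088), and Abcg2 with equal sums (0.32), quantile normalization (0.0044), class (0.093) or depth (0.24) as covariate, in Xist-high libraries (0.29), without knockouts 3, 6 and 7 (0.019), and at -0.17 to 0.079 with 1 library left out. With the replicate number as a block there were 4 higher and 10 lower calls, Abcb8 and Abcc6 being among the 3 lost. The labels give no pairing: same-numbered libraries correlated at 0.071 to 0.228 in their deviations, and of 6 controls only 2 and 4 matched their own number best, so the numbers were not taken to pair the mice. Each ratio kept its sign under every set of libraries tried. Depth limits the low members most, since the shallowest library held 11.1 M reads (M, megareads).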
